A study of Mus musculus with 7 samples.

Results

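The colony-stimulating factors and their receptors were followed in the choroid plexus of mouse embryos exposed to red blood cells. The set holds 8 genes, chosen by symbol: the ligand genes Csf1, Il34, Csf2 and Csf3, and the receptor genes Csf1r, Csf2ra, Csf2rb and Csf3r. It was chosen with earlier results of these data known. All 8 were found among the 40873 genes of the count table. The tissue was pooled lateral ventricle choroid plexus of wild-type CD-1 embryos, an outbred stock, collected at E15.5 (embryonic day). It was taken 24 h after treatment with washed red blood cells (RBC, 3 libraries) or saline (4 libraries), and the red blood cells had been collected from donor embryos at E14.5. All 7 libraries carry the same batch label. The sources used here do not say how many embryos or litters entered each pool, so the p-values below cover only the spread among 7 libraries.

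CSF1R is a receptor tyrosine kinase carried by macrophages and microglia, and its ligands CSF1 and IL-34 sustain the survival and proliferation of these cells. GM-CSF, encoded by Csf2, binds a specific alpha chain encoded by Csf2ra, which pairs with the beta chain encoded by Csf2rb that the IL-3 and IL-5 receptors also use. Mice carry a further, very similar beta chain gene, Csf2rb2, whose product serves IL-3. G-CSF, encoded by Csf3, acts through the receptor encoded by Csf3r, which is characteristic of neutrophils and their precursors.

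Total counts were 5479812 to 7944404 in the RBC libraries and 4393860 to 8386928 in the saline libraries. Transcripts of the choroid plexus epithelium were abundant in every library: Ttr, which encodes the thyroid hormone carrier transthyretin, lay between 10128 and 12013 CPM (library-scaled counts, with TMM factors) with RBC and between 10050 and 14879 CPM with saline. Some libraries stood apart in the markers of other cells. RBC 2 had 101 CPM over 14 neutrophil markers, where the other RBC libraries had 16.2 and 31.3 CPM and the saline libraries 12.996 to 31.5 CPM. RBC 3 had 3186 CPM over 10 mesenchymal and mural markers, where the other RBC libraries had 1671 and 1933 CPM and the saline libraries 1970 to 2133 CPM.

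The ligands and receptors of the set were on average higher with RBC, without a single one passing the test over all genes. Of the 8 genes, 6 could be tested, and all 6 had a log2 fold change above 0, with a median of 0.94 where the median of all 14869 genes tested was -0.00034. Without RBC 2 the 6 values ran from 0.26 (Csf2ra) to 1.30 (Il34). Some of the genes moved together over the libraries, as Csf2rb and Csf3r did (Pearson r = 0.92 of log2 CPM), so they are not 6 separate observations. In edgeR, 0 of the 6 had an adjusted p under 0.05, against 0.0605% of all genes tested. At an unadjusted p under 0.05, 4 were higher (Il34, Csf1r, Csf2rb and Csf3r), against 5.22% of all genes. DESeq2 called 2 of the 6 as higher, Csf1r and Csf3r, against 1.1% of the genes it tested, and limma-voom called 0. For Csf1r, Csf2rb and Csf3r, every RBC library lay above every saline library, which held for 4.96% of all genes tested. Because the set was chosen with earlier results of these data known, these shares are a description and no test of enrichment. Each of the 6 reached the count filter in at least 3 saline libraries, so none was tested only because of its level with RBC. Csf2 and Csf3 had 0 counts in all 7 libraries.

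**Figure D1:**
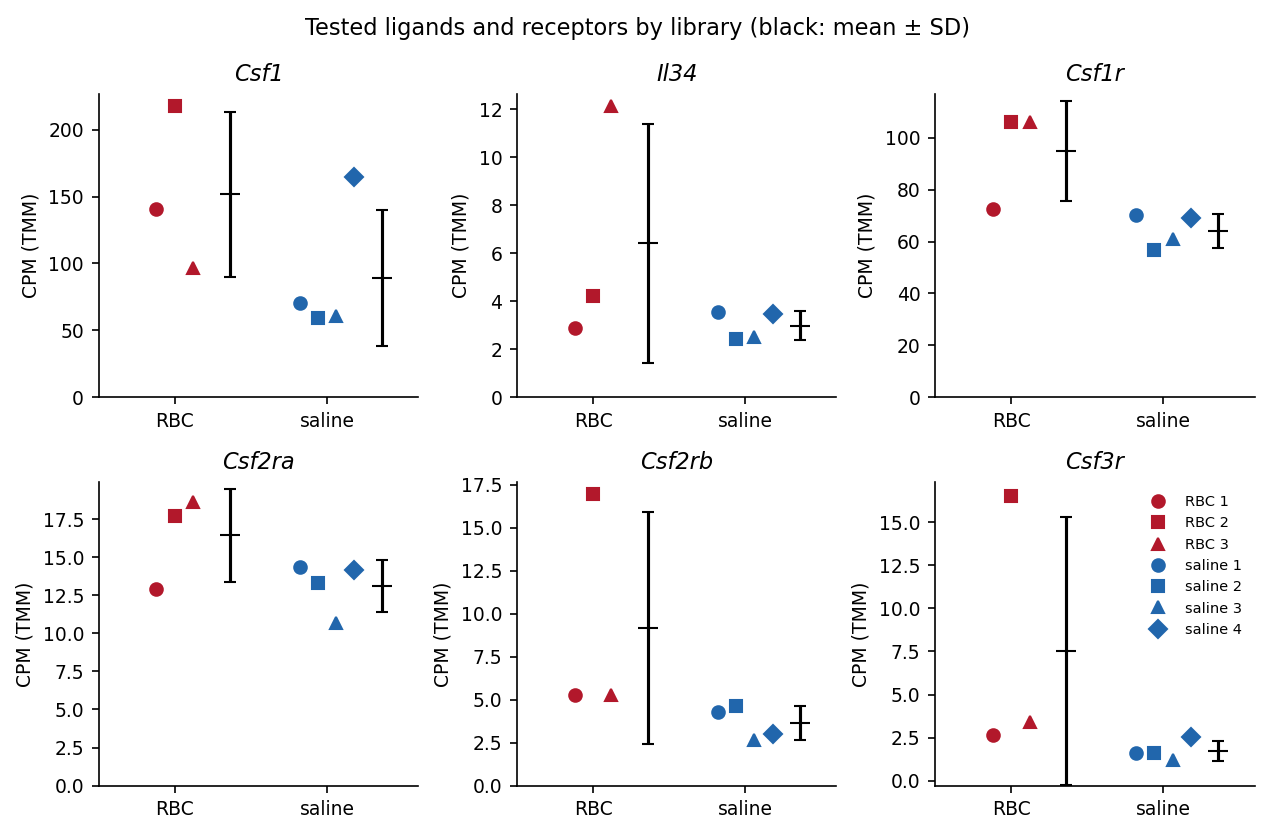
CPM of the 6 tested genes in each library, with red symbols for RBC and blue symbols for saline, the symbol shape giving the replicate number and black bars the mean ± SD. The RBC symbols all lie above the saline symbols for Csf1r, Csf2rb and Csf3r. RBC 2 is far above the rest for Csf2rb and Csf3r, RBC 3 for Il34, and saline 4 is within the RBC range for Csf1.

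The upstream sequences of the ligand and receptor genes that differ most in their pattern are shown here because the values below set them beside each other. Of the 8 genes, 4 have an entry in the RefSeq promoter table of build GRCm38.p6. The 250 bases before the start are given 5′ to 3′ on the strand of the gene for Csf1 (chr3:107760470-107760719, minus strand), whose level was highest, for Csf3r (chr4:126024409-126024658, plus strand), whose fold change was the largest of the 6 with all libraries, and for Csf2ra (chr19:61228419-61228668, minus strand), whose fold change was the smallest. Capitals mark matches to any of 6 motifs searched on both strands.
Csf1: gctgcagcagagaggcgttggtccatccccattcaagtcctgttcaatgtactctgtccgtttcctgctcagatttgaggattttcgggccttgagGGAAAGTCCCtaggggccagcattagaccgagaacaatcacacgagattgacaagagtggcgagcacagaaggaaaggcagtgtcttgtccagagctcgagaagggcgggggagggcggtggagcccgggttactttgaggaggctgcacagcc
Csf3r: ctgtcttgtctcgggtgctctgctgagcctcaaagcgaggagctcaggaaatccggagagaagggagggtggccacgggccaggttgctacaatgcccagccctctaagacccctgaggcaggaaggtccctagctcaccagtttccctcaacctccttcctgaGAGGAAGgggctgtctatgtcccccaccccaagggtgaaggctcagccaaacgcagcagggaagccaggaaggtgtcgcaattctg
Csf2ra: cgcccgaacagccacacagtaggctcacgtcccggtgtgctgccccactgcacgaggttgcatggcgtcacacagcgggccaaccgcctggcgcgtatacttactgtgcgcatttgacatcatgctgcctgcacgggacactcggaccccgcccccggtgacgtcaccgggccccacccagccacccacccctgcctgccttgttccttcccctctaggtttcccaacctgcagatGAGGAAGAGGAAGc

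The Csf1 window held a match to the NF-kB consensus at -154 to -145 on the minus strand, counted from the start of transcription; 3.9% of the 32851 promoters of this length in the table hold one. The Csf3r window held the core of the PU.1 motif, GAGGAAG, at -86 to -80. The Csf2ra window held it at -14 to -8 and again, overlapping by 1 base, at -8 to -2, and 10.6% of all promoters hold it. The other motifs searched were the core of the interferon-stimulated response element, searched by its consensus (2.98% of promoters), the C/EBP motif TTGCNNAA (9.56%), the AP-1 motif TGANTCA (6.75%) and the STAT motif TTCNNNGAA (7.02%). These motifs were not in the 3 windows shown.

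Csf1 was the most abundant ligand. Csf1 encodes macrophage colony-stimulating factor and spans 107648364 to 107668048 of chromosome 3 on GRCm39 (minus strand). It had 140, 218 and 96.5 CPM in RBC 1, 2 and 3, against 70.8, 59.5, 60.8 and 165 CPM in saline 1, 2, 3 and 4. All RBC libraries were above saline 1, 2 and 3, and saline 4 was above RBC 1 and RBC 3, so the groups overlapped. The mean was 152 ± 61.6 CPM with RBC (SD, n = 3) and 89.0 ± 50.9 CPM with saline (SD, n = 4), and the log2 fold change was 0.79 ± 0.50 (SE), with 0.730 as its edgeR adjusted p. The 4 libraries with the most Csf1 were also the 4 with the lowest sums of 8 neuron markers, a list added after the values were seen: these sums were 165, 111 and 178 CPM with RBC, against 223, 214, 219.9 and 155 CPM in saline 1 to 4. Map2 was the largest part of each sum, at 94.4 to 110 CPM with RBC and 107 to 131 CPM with saline. The part of the neuron markers in the value of Csf1 was not tested. Leaving out saline 4 gave 1.26 ± 0.32 (edgeR adjusted p = 0.289). Leaving out RBC 2 gave 0.44 ± 0.54 (edgeR adjusted p = 0.960), and leaving out both gave 0.91 ± 0.16 (edgeR adjusted p = 0.0774).

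The genes whose log2 CPM followed Csf1 most closely over the 7 libraries shared its high value in saline 4. Among 11235 genes with a mean count of at least 50, they included Slc16a6 (Pearson r = 0.98), Vamp8 (0.97), Arrdc4 (0.96) and Creld2 (0.96). Arrdc4 had 64.0, 77.3 and 63.4 CPM with RBC, against 55.3, 49.9, 47.7 and 68.1 CPM in saline 1 to 4. These correlations share libraries and depth with the grouping and are a description.

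Il34, the other ligand of CSF1R, was present at a low level, and RBC 3 held most of its difference. IL-34 is known as a product of neurons and keratinocytes. Il34 (chromosome 8, 111467809 to 111532579, minus strand) had 23, 28 and 67 counts with RBC, against 24, 15, 21 and 15 counts with saline. In CPM this was 2.89, 4.24 and 12.1 with RBC and 3.55, 2.41, 2.51 and 3.47 with saline. Only RBC 2 and RBC 3 were above all saline libraries. The log2 fold change was 1.08 ± 0.46 (SE, edgeR adjusted p = 0.491), and without RBC 3 it was 0.26 ± 0.33 (edgeR adjusted p = 0.804). RBC 3 was also the library with the highest sum of mesenchymal and mural markers, and its 1443 CPM over 10 endothelial markers was above the 998 to 1227 CPM of the other 6 libraries. The part of these markers in the value of Il34 was not tested. The sum of neuron markers in RBC 3, 178 CPM, was the highest of the RBC libraries and lay below saline 1, 2 and 3.

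An exon of Il34 overlaps an exon of Mtss2 on the opposite strand, and the sources used here do not say whether the counting used the strand. Mtss2 had 133 to 144 CPM with RBC and 123 to 151 CPM with saline (log2 fold change 0.00 ± 0.08), and it had 144 CPM in RBC 3, beside 133 and 134 CPM in RBC 1 and RBC 2.

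The receptor gene Csf1r showed the smallest error of the 6 tested genes and separated the groups. Csf1r lies at 61238644 to 61264211 of chromosome 18 (plus strand). It had 72.6, 106 and 106 CPM in RBC 1, 2 and 3, against 70.3, 56.6, 61.0 and 69.0 CPM in saline 1 to 4. RBC 2 and RBC 3 were well above saline, while RBC 1 was just above saline 1. The log2 fold change of 0.56 ± 0.14 (standard error), or 1.48-fold, had an adjusted p of 0.163 in edgeR and of 0.0157 in DESeq2. Without RBC 1 it was 0.73 ± 0.10 (edgeR adjusted p = 0.0362), and over all alternatives the adjusted p ran from 0.0157 to 0.463.

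Csf1r did not stand alone among macrophage transcripts. In this bulk tissue, more macrophages and more RNA per macrophage cannot be told apart. The sum of the 22 other macrophage markers was 592, 897 and 831 CPM with RBC, against 506, 363, 457 and 446 CPM with saline, and so the groups did not overlap in this sum either. Csf1r amounted to 12.3, 11.8 and 12.8% of that sum with RBC, against 13.9, 15.6, 13.3 and 15.47% with saline, and its share was thus lower in every RBC library than in every saline library. Among the 23 markers with Csf1r itself, 23 had a log2 fold change above 0, with a median of 0.92. Adgre1, the gene of the F4/80 antigen, was the 1 marker past the edgeR threshold and rose 2.13-fold (log2 fold change 1.09 ± 0.15, edgeR adjusted p = 0.0280). At an unadjusted p under 0.05, 17 were higher (5.22% of all genes), DESeq2 called 13 (1.1% of the genes it tested) and limma-voom 0. The defining markers C1qa and C1qc, which encode chains of the complement initiator C1q, had 31.3 to 48.6 and 32.4 to 47.8 CPM with RBC, against 19.3 to 27.9 and 18.3 to 29.0 CPM with saline.

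**Figure D2:**
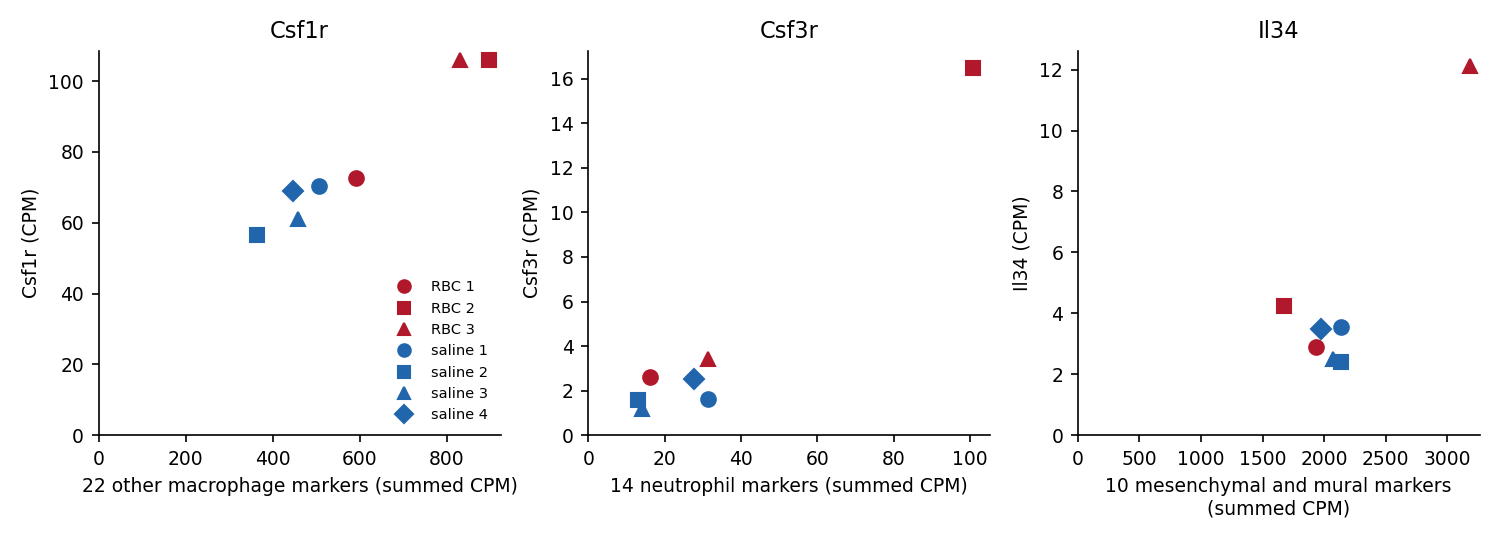
Each of the 7 libraries as a symbol (red for RBC, blue for saline, shape for replicate number), with Csf1r, Csf3r and Il34 in CPM on the vertical axes and the summed CPM of marker lists on the horizontal axes. RBC 2 and RBC 3 are high in both Csf1r and macrophage markers, RBC 2 is high in both Csf3r and neutrophil markers, and RBC 3 is high in both Il34 and mesenchymal and mural markers.

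The genes most alike to Csf1r in pattern were Dclre1c, Gatm, Ralb, C1qa and Tmsb4x (Pearson r = 0.97 for each over 7 libraries). C1qa is itself a macrophage marker. Gatm, which encodes an enzyme of creatine synthesis, had 43.3, 73.4 and 64.6 CPM with RBC, against 31.3, 21.02, 27.99 and 32.0 CPM with saline (log2 fold change 1.11 ± 0.20, edgeR adjusted p = 0.112).

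Other genes that bind the CSF1R ligands or carry its signal were split between those of myeloid cells and those of many cell types. Of 23 tested genes of CSF1R signalling, 20 had a log2 fold change above 0 and 3 below, with a median of 0.61. In edgeR 0 passed the threshold, and 14 were higher at an unadjusted p under 0.05, against 5.22% of all genes. DESeq2 called 4 as higher, against 1.1% of the genes it tested, and limma-voom 0. Spi1, Plcg2 and Hcls1 were among the 4. Pik3r5 reached the count filter only with the help of RBC libraries. It had 4.02, 5.14 and 2.72 CPM with RBC, against 1.63, 1.12, 1.08 and 1.85 CPM with saline. Its place among the higher genes and in the median is no support for a rise. Spi1, which encodes the macrophage transcription factor PU.1, had 8.79, 17.7 and 8.87 CPM with RBC, against 5.91, 3.69, 3.71 and 3.94 CPM with saline (log2 fold change 1.44 ± 0.29, edgeR adjusted p = 0.104). The most abundant genes of the list per length were Adam17, which encodes the protease that sheds CSF1R, and Grb2, which encodes an adaptor of tyrosine kinases. Adam17 had a log2 fold change of 0.05 ± 0.07 (edgeR adjusted p = 0.895), and Grb2 had 0.05 ± 0.07 (edgeR adjusted p = 0.926). Spi1 and Tyrobp stand in the macrophage marker list as well.

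Among the genes of receptor partners and paralogs, 5 were tested (Csf2rb2, Il3ra, Ptprz1, Sdc1 and Trem2), 3 with a log2 fold change above 0 and 2 below, with a median of 0.49. In edgeR and limma-voom 0 passed. At an unadjusted p under 0.05, 2 were higher (Csf2rb2 and Ptprz1), against 5.22% of all genes. DESeq2 called 1 as higher, against 1.1% of the genes it tested. Csf2rb2 passed the count filter through the RBC libraries, so its place in this count and median is no support for a rise. Of the other receptors reported for IL-34, Ptprz1, which encodes a receptor tyrosine phosphatase, had 51.7, 46.6 and 35.9 CPM with RBC, against 31.3, 29.5, 34.2 and 25.9 CPM with saline. The groups did not overlap (log2 fold change 0.56 ± 0.13, adjusted p = 0.137 in edgeR and 0.0439 in DESeq2). Sdc1, which encodes the proteoglycan syndecan-1, had 115 ± 14.04 CPM with RBC and 122.5 ± 5.18 CPM with saline (log2 fold change -0.09 ± 0.09, edgeR adjusted p = 0.839). Trem2, which encodes a lipid receptor of macrophages, had 49, 39 and 13 counts with RBC, against 31, 16, 21 and 19 counts with saline.

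For the GM-CSF branch, the ligand was not detected and the receptor chains were low. Csf2, at 54138096 to 54140725 of chromosome 11 (minus strand), had 0 counts in every library. Taking 3 counts as the limit that a count of 0 allows, Csf2 was below 0.149 CPM over the RBC libraries together and below 0.117 CPM over the saline libraries together, which covers counting error only. Csf2ra, which encodes the alpha chain (chromosome 19, 61205629 to 61221141, minus strand), had 12.9, 17.7 and 18.6 CPM with RBC, against 14.3, 13.3, 10.6 and 14.1 CPM with saline. RBC 1 lay within the saline range, and the log2 fold change of 0.33 ± 0.17 had an edgeR adjusted p of 0.595. The genes most like Csf2ra over the 7 libraries were Capzb (r = 0.98), Trp53 (0.97), Mdc1 (0.97), Wdr81 (0.96) and Rpl10 (0.96).

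Csf2rb, which encodes the shared beta chain (chromosome 15, 78210000 to 78235201, plus strand), had 42, 112 and 29 counts with RBC, against 29, 29, 22 and 13 counts with saline. In CPM this was 5.27, 16.9 and 5.25 with RBC and 4.29, 4.65, 2.63 and 3.01 with saline. RBC 1 and RBC 3 were slightly above the highest saline library, and RBC 2 was far above. The log2 fold change, 1.32 ± 0.45 over all libraries (edgeR adjusted p = 0.334), was 0.53 ± 0.30 without RBC 2 (edgeR adjusted p = 0.810).

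The neighbouring gene Csf2rb2 (chromosome 15, 78166707 to 78189921, minus strand) is so similar to Csf2rb that reads may have been split between them or dropped. It had 13, 35 and 12 counts with RBC, against 9, 8, 12 and 8 counts with saline, and passed the count filter through the RBC libraries, since 1 saline library reached it. Csf2rb2 took 23.6, 23.8 and 29.3% of the summed counts of both genes with RBC, against 23.7, 21.6, 35.3 and 38.1% with saline. The summed level was 6.91, 22.2 and 7.42 CPM with RBC, against 5.61, 5.94, 4.07 and 4.86 CPM with saline. The RBC libraries were all above the saline libraries, as they were for Csf2rb alone, with a difference of 7.07 CPM. Without RBC 2 the difference was 2.04 CPM.

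Of the alpha chain genes of the IL-3 and IL-5 receptors, only Il3ra could be tested, and it showed no like separation. Il3ra, which encodes the alpha chain of the IL-3 receptor, had 64, 31 and 34 counts with RBC, against 36, 64, 50 and 34 counts with saline (log2 fold change -0.21 ± 0.27, edgeR adjusted p = 0.898). Il5ra had 3 counts in saline 4 and 0 elsewhere, too few to show a separation. Of the ligand genes, Il3 had 0 counts in all libraries, and Il5 had 1 count in saline 1 and 1 in saline 4.

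For the G-CSF branch, the ligand was again not detected and the receptor was higher with RBC by an amount that rested on RBC 2. Csf3, at 98591287 to 98594457 of chromosome 11 (plus strand), had 0 counts in every library, with the same limits in CPM as Csf2. Csf3r (chromosome 4, 125917241 to 125938768, plus strand) had 21, 109 and 19 counts with RBC, against 11, 10, 10 and 11 counts with saline. In CPM this was 2.64, 16.5 and 3.44 with RBC and 1.63, 1.604, 1.20 and 2.55 with saline. RBC 1 lay just above saline 4, and RBC 2 was several times above every other library. The log2 fold change of 2.15 ± 0.70 (standard error), or 4.44-fold, had an adjusted p of 0.332 in edgeR, 0.0488 in DESeq2 and 0.475 in limma-voom. With all libraries this was the largest fold change of the 6 genes. Without RBC 2 it was 0.83 ± 0.39 (edgeR adjusted p = 0.696), below the 1.30 ± 0.50 of Il34 in the same fit (edgeR adjusted p = 0.599).

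Part of the neutrophil and monocyte markers were, like Csf3r, highest in RBC 2. This held for 6 of 14 neutrophil markers by CPM, while 6 were highest in a saline library, 1 in RBC 3 and 1 was at 0 throughout, and it held for 6 of 8 monocyte markers. S100a9, which encodes a calcium-binding protein of neutrophils, had 11, 294 and 18 counts with RBC, against 36, 5, 11 and 19 counts with saline. Cxcr2, which encodes a chemokine receptor of neutrophils, had 6, 49 and 5 counts with RBC, against 3, 1, 4 and 1 with saline. Ccr2, the chemokine receptor gene of inflammatory monocytes, had 12, 125 and 29 counts with RBC, against 14, 10, 27 and 11 with saline. Ltf, the gene of the granule protein lactoferrin, had 5, 7 and 5 counts with RBC, against 13, 1, 10 and 41 with saline. Prtn3, which encodes the granule enzyme proteinase 3, had 7.66, 6.20 and 12.3 CPM with RBC, against 9.16, 8.02, 6.94 and 8.57 CPM with saline, and was lowest in RBC 2. Ly6g was at 0 in all libraries, Elane had at most 3 counts, and Mpo, the gene of the granule enzyme myeloperoxidase, had 6, 22 and 7 counts with RBC, against 28, 1, 0 and 2 with saline. Of the 14 neutrophil markers 4 were tested (S100a8, S100a9, Prtn3 and Mmp9), with a median log2 fold change of 1.98. In edgeR 0 passed, 1 was higher at an unadjusted p under 0.05 (5.22% of all genes), and DESeq2 called 1 (Mmp9, against 1.1%). S100a8 (2.20 ± 1.31) and S100a9 (2.51 ± 1.40) lay within the saline range outside RBC 2, so the median does not describe the whole list. Both reached the count filter only with the help of RBC libraries, so their place in this median is no support for a rise. Among untested markers, Ltf, Ngp, Camp, Elane and Fcnb had lower means with RBC, and Mpo, Retnlg, Mmp8 and Cxcr2 higher ones. Of 8 monocyte markers 4 were tested, with a median of 0.79, and 0 passed in edgeR or DESeq2. Plac8, among the 4, also reached the count filter only with the help of RBC libraries, so this median is no support for a rise. At an unadjusted p under 0.05, 1 was higher, against 5.22% of all genes. The part of these markers in the values of Csf3r and Csf2rb was not tested.

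**Figure D3:**
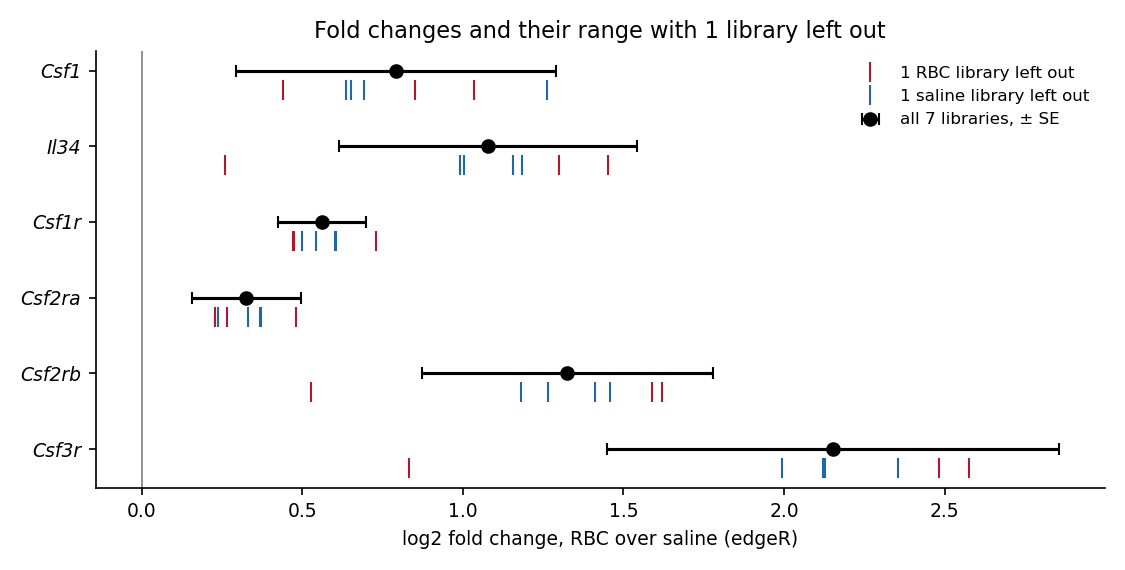
Log2 fold changes of RBC over saline (edgeR) for the 6 tested genes, as black points with SE bars, and below each the values after leaving out 1 RBC library (red ticks) or 1 saline library (blue ticks). All ticks lie above 0. The lowest ticks of Csf2rb (0.53), Csf3r (0.83) and Csf1 (0.44) come from leaving out RBC 2, and that of Il34 (0.26) from leaving out RBC 3.

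Most downstream genes of the GM-CSF and G-CSF receptors had small fold changes. Of 15 tested, 13 had a log2 fold change above 0 and 2 below, with a median of 0.10. In edgeR and limma-voom 0 passed, and 3 were higher at an unadjusted p under 0.05, against 5.22% of all genes. DESeq2 called 2 as higher, against 1.1% of the genes it tested. The 2 were Stat3, the transcription factor gene of G-CSF signalling, and Socs3, which encodes its feedback inhibitor; both serve the IL-6 family as well. Stat3 had 114, 122 and 80.4 CPM with RBC, against 67.7, 71.9, 61.0 and 58.1 CPM with saline (log2 fold change 0.70 ± 0.14, adjusted p = 0.104 in edgeR and 5.15e-04 in DESeq2). Socs3 had 38.7, 64.7 and 17.02 CPM with RBC, against 16.99, 16.4, 15.1 and 13.7 CPM with saline. RBC 3 was level with saline 1 for Socs3, whose log2 fold change was 1.37 ± 0.42 (edgeR adjusted p = 0.330). The most abundant genes of the list per length were Ptpn11, encoding the phosphatase SHP2, and Bcl2l1, encoding the survival factor BCL-XL. Ptpn11 had a log2 fold change of 0.02 ± 0.06 (edgeR adjusted p = 0.953) and Bcl2l1 one of 0.03 ± 0.08 (edgeR adjusted p = 0.956). Cish, a target gene of STAT5, the main transcription factor of the GM-CSF receptor, had -0.07 ± 0.14 (edgeR adjusted p = 0.943).

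**Figure D4:**
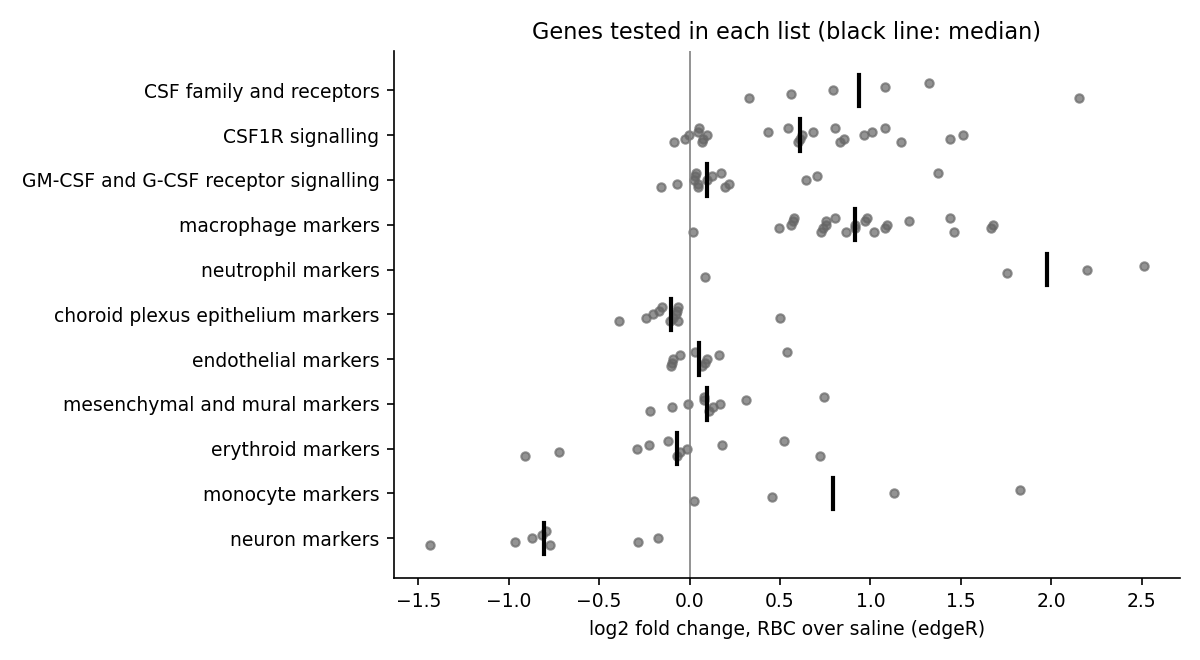
Log2 fold changes of RBC over saline (edgeR) for the genes tested in each list, 1 grey point per gene, with the list's median as a black line. The median is 0.94 for the colony-stimulating factors and receptors, 0.61 for CSF1R signalling, 0.92 for macrophage markers, 0.10 for GM-CSF and G-CSF receptor signalling and -0.80 for neuron markers.

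Median log2 fold changes of epithelial, endothelial, mesenchymal and erythroid markers lay close to that of all genes, with neuron markers below it. The median log2 fold change was -0.10 over 12 epithelial markers, 0.05 over 10 endothelial markers, 0.09 over 10 mesenchymal and mural markers and -0.07 over 11 erythroid markers. In edgeR, 0 genes of these 4 lists passed. Of the 12 epithelial markers, 11 had a log2 fold change below 0, and for 4 every RBC library lay below every saline library. With unadjusted p-values under 0.05, 4 epithelial markers were lower and 0 markers of the other lists differed. DESeq2 called 2 epithelial markers as lower, Aqp1 (log2 fold change -0.24 ± 0.06 in edgeR) and Slc4a5 (-0.39 ± 0.07). In either direction DESeq2 called 280 of 20103 genes. For genes lower with RBC, the shares over all genes were not computed. The counts of lower markers given here, also of neuron markers, are therefore a description only. Hbb-bs and Hba-a1, the most abundant globin genes of the erythroid list per length, had log2 fold changes of -0.01 ± 0.11 and -0.05 ± 0.14 (edgeR adjusted p = 0.991 and 0.956). The 8 neuron markers all had a log2 fold change below 0, with a median of -0.80; 0 passed in edgeR, DESeq2 or limma-voom and 1 was lower at an unadjusted p under 0.05 (Snap25). Their sums overlapped between the groups through saline 4. Lymphoid and mast cell markers summed to at most 2.36 CPM in any library, and 0 of 10 could be tested.

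Per kilobase of exon, Csf1 and Csf1r were far above the other members in every library. With RBC, Csf1 had 31.4 ± 12.8 CPM per kilobase and Csf1r 24.5 ± 4.99, and with saline Csf1 had 18.4 ± 10.5 and Csf1r 16.6 ± 1.69 (SD, n = 3 and n = 4). In both groups the difference between these genes was smaller than the SD of Csf1 and larger than the SD of Csf1r. Next came Il34 with 2.33 ± 1.82 CPM per kilobase with RBC and 1.08 ± 0.22 with saline. Csf2rb had 1.88 ± 1.38 with RBC and 0.748 ± 0.200 with saline, Csf3r 1.58 ± 1.63 with RBC and 0.365 ± 0.120 with saline, and Csf2ra 1.19 ± 0.221 with RBC and 0.946 ± 0.123 with saline. With RBC these 4 genes overlapped in their spread. With saline, Il34, Csf2ra and Csf2rb overlapped, and the highest Csf3r library (0.534) was below the lowest libraries of Il34 (0.875) and Csf2ra (0.768) and just below that of Csf2rb (0.540). The exon length listed for Csf2ra is 13857 bases, the longest of the 8 genes, so its level per length is low for its count.

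**Figure D5:**
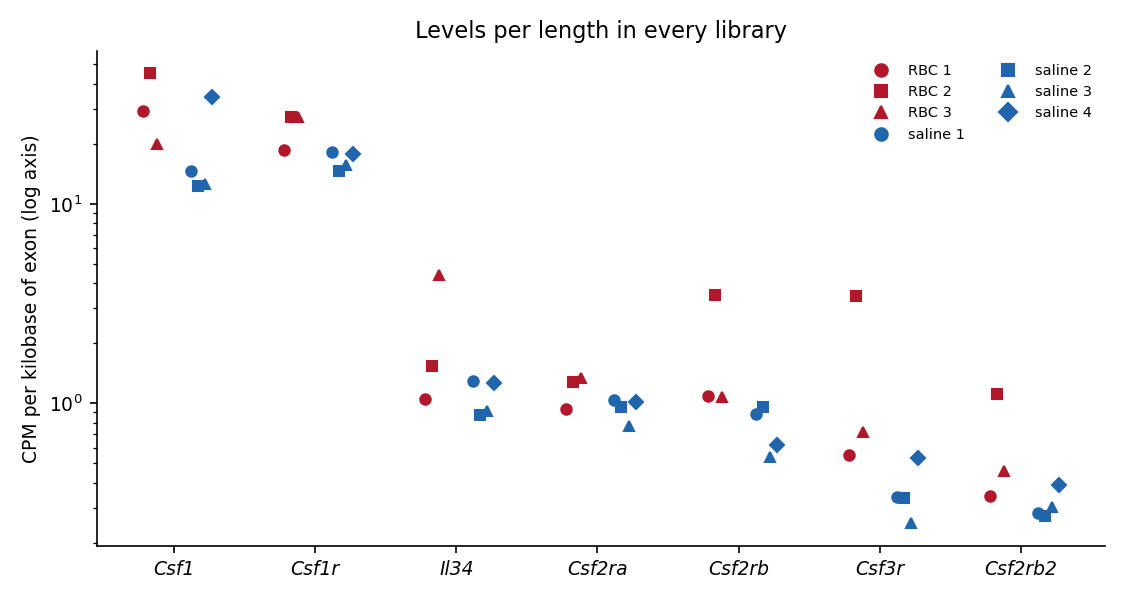
CPM per kilobase of exon on a log axis for the detected genes and for Csf2rb2, 1 symbol per library (red for RBC, to the left of blue for saline). Csf1 and Csf1r lie between 12.3 and 45.2 CPM per kilobase, and all other symbols lie below 4.5.

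The balance of the ligands of CSF1R differed between libraries more than between groups. Per length, Csf1 was 27.7, 29.4 and 4.53 times the level of Il34 in RBC 1, 2 and 3, against 11.4, 14.1, 13.8 and 27.1 times in saline 1 to 4. RBC 3 was the lowest and RBC 2 the highest of all 7 libraries. Relative to its receptor per length, Csf1 stood at 1.55, 1.65 and 0.730 times Csf1r with RBC, against 0.808, 0.844, 0.800 and 1.92 times with saline. The groups overlapped in both ratios, which were not tested.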

How the data were processed

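Poly(A) RNA was made into directional libraries, per the labels' protocols. The authors deposited 1 table of raw gene counts, made with cutadapt 2.5, STAR 2.6.1b and featureCounts 2.0.6 on GRCm39, per the submitters' processing notes. The sources used here give no annotation release and no strand or multi-mapping setting of the counting. The lines of 6 genes were broken and left out (0.107% of counts), which left 40873 genes.

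The main test was edgeR 4.0.16, quasi-likelihood (R 4.3.3, robust, two-sided, TMM, filterByExpr, 14869 genes), adjusted by Benjamini-Hochberg over all genes with a threshold of 0.05. SE values come from the F statistic. CPM use TMM library sizes. Levels between genes were compared per kilobase of exon. Alternatives were DESeq2 1.42.0, voom of limma 3.58.1 (also with sample weights), other filters and normalizations, no robust estimation, a replicate block and left-out libraries. The test was tried on simulated counts. A count of 3 corresponds to 0.358 to 0.683 CPM.

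The members and lists were chosen with earlier results of these data known. The text names the members, Csf2rb2, the list members past the threshold or else the 2 most abundant per length, and the 5 genes most correlated with each member that has a mean count of at least 50 (log2 CPM, prior count 2). Other list members were chosen after their values were seen. A few genes taken by this rule or called in a list are not reported here. Figures were drawn with matplotlib 3.10.9.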

Additional observations from a re-analysis of the deposited data

Results flagged for a closer look

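Saline 4 held 165 CPM of Csf1, where saline 1, 2 and 3 held 59.5 to 70.8 CPM. Its distance to the next library was 0.893 of the range of the 4 saline libraries, past the 95% critical value of Dixon's test, and chance passes about 1 in 20 such groups. Of 7 genes examined in this way, 1 passed. The RBC libraries, 3 in number, were too few for this test.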

How the results depend on the processing

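All 108 log2 fold changes of the 6 tested members under 18 alternatives were above 0. Csf1, Il34, Csf2ra and Csf2rb passed the threshold under none of them (lowest adjusted p = 0.0774, 0.207, 0.343 and 0.132). DESeq2 called 2 members, Csf1r at 0.57 and Csf3r at 2.14, and leaving out 1 library gave 0 to 1 member called, Csf1r without RBC 1. With 1 library left out, log2 fold changes ran from 0.44 to 1.26 for Csf1, 0.47 to 0.73 for Csf1r, 0.23 to 0.48 for Csf2ra, 0.53 to 1.62 for Csf2rb, 0.83 to 2.58 for Csf3r and 0.26 to 1.45 for Il34. The number of genes called, 9 with all libraries, was 280 with DESeq2, 48 with limma-voom and sample weights, 136 without the count filter, 16 without robust estimation and 40 without RBC 2 and saline 4. With 1 library left out it was 1 to 283, the highest without RBC 3 and the lowest without saline 1, 2 or 3. The summed beta chain difference of 7.07 CPM had an exact permutation p of 0.0286, the smallest that 35 splits allow, whatever the values. This difference was 1.96 CPM without RBC 2 and saline 4 and 2.04 to 9.71 CPM with 1 library left out. With libraries left out, so few remain that an exact p under 0.05 cannot be reached. The cause of these shifts was not tested. Same-numbered libraries did not deviate together (correlations of deviations -0.008, -0.173 and -0.173), and with a replicate block 2 genes and 0 members were called. Without RBC 2, Il34 (1.30) and not Csf3r (0.83) had the largest fold change. Il34, Csf2rb and Csf3r had under 50 counts per library on average, but Csf1, with 738, had an SE (0.50) no smaller than Il34 or Csf2rb (0.46 and 0.45), and how much depth contributes to these errors was not tested.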
